A study of Sus scrofa with 36 samples.

Results

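PARP9, PARP14 and DTX3L are 3 nearby genes of the interferon response, and their messenger RNA was measured in pig hearts at 4 ages after birth. The rule was the gene symbol: the 3 genes are 3 of the 9815 genes with counts in the gene table, and all 3 were among the 5526 genes with enough counts to be tested. Their RNA was highest at day 28 (P28), at 1.84 to 1.92 times the day 1 (P1) level and 2.63 to 3.64 times the day 3 (P3) and day 7 (P7) levels. The rise over P3 and P7 was called under every alternative, as was that of PARP9 over P1. Over P1, DTX3L and PARP14 lost their calls in 5 and 10 of 20 alternatives. These included the replicate number as a block and some fits with 1 library left out. At P3 every library was below every P1 library for all 3 genes, as in 7.62% of all tested genes. The P3 mean was 0.515 to 0.668 times that of P1, but these differences did not pass the test over all genes.

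The hearts came from domestic Yorkshire pigs of both sexes that were fed normally and given no treatment, and the groups are named by age alone. The sex of each pig is not given in the sources used here, so its balance between the ages is unknown. Hearts were collected at P1, P3, P7 and P28, and the study compared the RNA of these ages. The gene counts are from 12 total RNA libraries of the sequencing batch cd, 3 pigs at each age, numbered 4 to 6 in the column names. Each pig gave 1 heart at 1 age, so ages are compared between pigs, and tissue RNA mixes all cell types of the heart. Fewer cells of a type and less RNA per cell cannot be told apart in such samples. The table covers genes of chromosomes 1, 2, 6 and 13 in the form used here, with 8887176 to 14883849 counts per library. Between 7.09% and 19.7% of them fell on 9 genes named Metazoa_SRP, which are copies of the signal recognition particle RNA. Levels are given as CPM, the counts scaled to a common total over the tested genes after TMM normalization, so they are relative to these 4 chromosomes. Heart muscle markers were abundant in every library, at a summed 69780 to 91800 CPM over 7 of the 14 listed markers, the number that the table holds.

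ADP-ribosylation is the transfer of ADP-ribose from NAD+ to proteins or nucleic acids by enzymes of the PARP family. PARP9 and DTX3L form a complex in which DTX3L, a Deltex-type E3 ubiquitin ligase, adds ubiquitin, and PARP9 contributes macrodomains that bind ADP-ribose. PARP14 is a large mono-ADP-ribosyltransferase that also carries macrodomains. Interferons bind their receptors, activate JAK kinases and STAT factors, and switch on a large set of antiviral genes to which all 3 belong. The response is present in most cell types, the cells of the heart included.

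In the gene table the 3 genes lie within 192522 bases of each other on chromosome 13. PARP14 (ENSSSCG00000011874) spans chr13:137809503-137865383, DTX3L (ENSSSCG00000011876) chr13:137950272-137961343 and PARP9 (ENSSSCG00000027709) chr13:137961357-138002024. The counts are over whole genes, so no exon or untranslated region is resolved. The build of these positions is not named in the table. The labels name Sscrofa10.2, whereas 4350 of 4355 gene symbols found once in both tables lay on overlapping spans in the RefSeq annotation of Sscrofa11.1. Only 13 bases separate the end of DTX3L from the start of PARP9, and 84888 bases lie between PARP14 and DTX3L. The annotated span of PARP9 shares 31536 bases with that of KPNA1, and the span of PARP14 shares 25 bases with that of HSPBAP1. The strand setting of the counting is not given in the sources used here, so how reads in these overlaps were assigned is uncertain.

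PARP9, the macrodomain partner of the complex, was at 39.9, 56.7 and 56.1 CPM in the P1 libraries of replicates 4, 5 and 6. It was at 34.9, 32.6 and 34.3 CPM at P3 and at 46.0, 31.7 and 27.4 CPM at P7. At P28 the 3 libraries held 111, 74.0 and 107 CPM. The P28 libraries were above all 9 younger ones, the P3 libraries were below all P1 libraries, and the P7 libraries overlapped with both P1 and P3. Of all tested genes, 22.5%, 15.6% and 23.7% had all P28 libraries above all P1, P3 and P7 libraries, each age taken alone. In 7.62% all P3 libraries were below all P1 libraries. The share with P28 above all 9 younger libraries at once was not counted. The means were 50.9 ± 9.55 CPM at P1, 33.9 ± 1.19 at P3, 35.0 ± 9.74 at P7 and 97.6 ± 20.5 at P28 (SD, n = 3). These values rest on 276 to 1389 counts per library.

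DTX3L, the ubiquitin ligase of the complex, was at 33.8, 51.6 and 57.4 CPM in replicates 4, 5 and 6 at P1. At P3 it was at 32.7, 31.0 and 31.6 CPM, and at P7 at 44.1, 31.2 and 24.4 CPM. At P28 it was at 97.7, 61.5 and 103 CPM. The order of the libraries resembled that of PARP9: replicate 4 was the lowest at P1 and the highest at P7, and replicate 5 was the lowest at P28. The means were 47.6 ± 12.3 CPM at P1, 31.8 ± 0.869 at P3, 33.3 ± 9.99 at P7 and 87.5 ± 22.7 at P28 (SD, n = 3), from 262 to 1218 counts per library.

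PARP14, the mono-ADP-ribosyltransferase, was at 64.5, 91.1 and 103 CPM in replicates 4, 5 and 6 at P1. It was at 41.6, 44.3 and 47.3 CPM at P3, and at 85.7, 49.4 and 39.2 CPM at P7. At P28 it was at 176, 110 and 200 CPM. Here too all P28 libraries were above all younger ones and all P3 libraries below all P1 libraries. The shares of all tested genes with such patterns are those given for PARP9. The 3 P7 libraries ranged from below the lowest P3 library to above 1 P1 library. The means were 86.3 ± 19.9 CPM at P1, 44.4 ± 2.82 at P3, 58.1 ± 24.5 at P7 and 162 ± 46.5 at P28 (SD, n = 3), from 375 to 2189 counts per library.

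**Figure D1:**
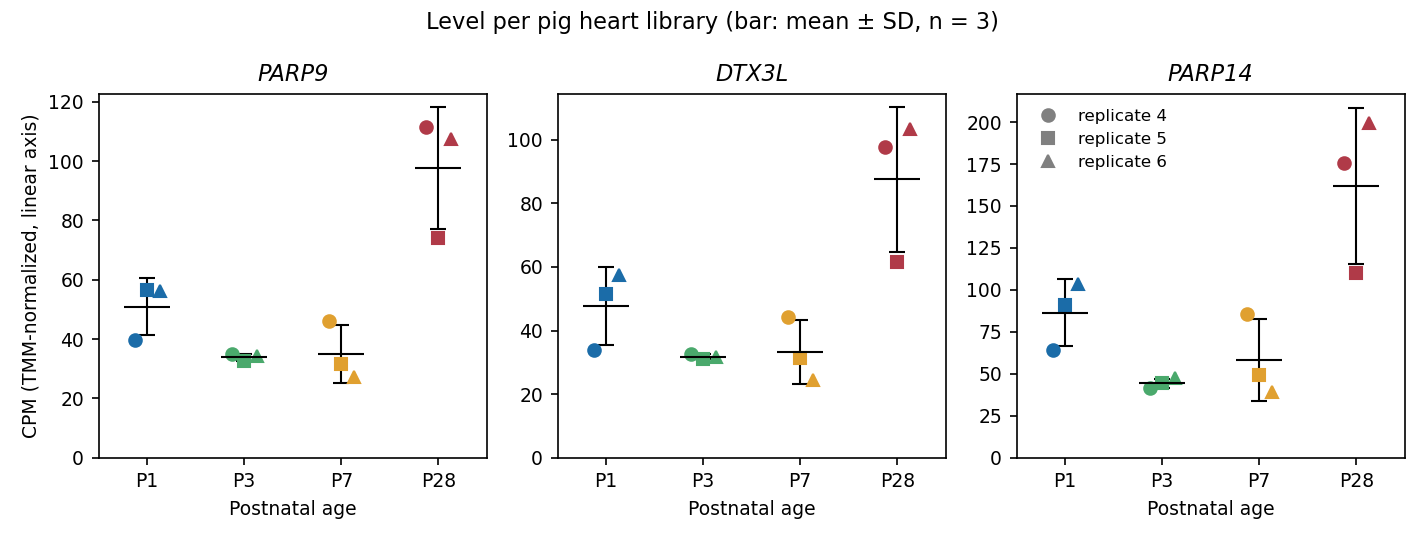
CPM (vertical axis, linear) of PARP9, DTX3L and PARP14 in each heart library at P1, P3, P7 and P28, with 1 marker shape per replicate number and bars for the mean and SD of 3 libraries. For each gene the 3 P28 points lie above all others, the P3 points lie close together, and the P7 points are spread by replicate 4.

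The mean levels had the order P3, P7, P1, P28 in all 3 genes. The libraries of P3 and P7, neighbours in this order, overlapped, as did those of P7 and P1, and neither pair of ages was called at an adjusted p under 0.05. The spread was smallest at P3, where the coefficient of variation was 3.5% for PARP9, 2.74% for DTX3L and 6.35% for PARP14. At P7 it was 27.8%, 30.02% and 42.1%. Whether the spread itself differed between the ages was not tested.

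Across the 4 ages together, edgeR's quasi-likelihood test gave an adjusted p of 0.00124 for PARP9, 0.00373 for DTX3L and 0.00277 for PARP14. By this test 21.4% of the 5526 tested genes differed between the ages, and the 3 genes stood at places 79, 230 and 184 in the order of p. The test sets the differences between the ages against the spread between separate pigs of an age.

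The 3 genes rose from P7 to P28. The log2 fold change was 1.48 ± 0.22 for PARP9, 1.40 ± 0.26 for DTX3L and 1.48 ± 0.29 for PARP14 (SE), which is a 2.79-fold, 2.63-fold and 2.79-fold higher level. The adjusted p of edgeR's quasi-likelihood test was 0.00105, 0.003 and 0.00403. Of all tested genes, 8.34% were called higher at P28 than at P7 at an adjusted p under 0.05, and in 23.7% the 3 P28 libraries were above the 3 P7 libraries. The changes of the 3 genes were at the 98.0, 97.7 and 98.0 percentiles of all log2 fold changes between these ages.

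The 3 genes also rose from P3 to P28, by 1.52 ± 0.22 log2 units for PARP9, 1.46 ± 0.26 for DTX3L and 1.86 ± 0.29 for PARP14 (SE). These are 2.87-fold, 2.75-fold and 3.64-fold differences, with adjusted p of 0.00137, 0.00316 and 0.00179 by edgeR's quasi-likelihood test. The background of genes called higher at P28 than at P3 was 7.98%, and 15.6% of genes had all P28 libraries above all P3 libraries. The P28 libraries are shared by every comparison with P28, so these are not independent results.

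From P1 to P28 the increases were smaller. PARP9 rose by 0.94 ± 0.22 log2 units (SE, 1.92-fold), DTX3L by 0.88 ± 0.25 (1.84-fold) and PARP14 by 0.91 ± 0.28 (1.87-fold). Their adjusted p by edgeR's quasi-likelihood test was 0.0122, 0.0345 and 0.0475, against a background of 7.38% of genes called higher and 22.5% with all P28 libraries above all P1 libraries. For P1 and P28 the deviations of same-numbered libraries from their age means had weak positive correlations (0.138 to 0.331). With the replicate number as a block the adjusted p of this test was 0.0222 for PARP9, 0.0542 for DTX3L and 0.0703 for PARP14. The calls for DTX3L and PARP14 were thus lost with the block and that for PARP9 was not. PARP9 also kept its call when any 1 of the 12 libraries was left out, at an adjusted p of up to 0.0499. For DTX3L the adjusted p was 0.105 without P1 replicate 4, 0.0744 without P1 replicate 5, 0.104 without P28 replicate 4 and 0.124 without P28 replicate 6. The PARP14 call was lost without P1 replicate 4, 5 or 6 (adjusted p 0.143, 0.105 and 0.0744) and without P28 replicate 4 or 6 (0.125 and 0.169). It was lost too without P3 replicate 4 or 6 or P7 replicate 5, at 0.0559, 0.0565 and 0.0603, although these libraries are of neither age.

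Between P1 and P3 the log2 fold change was −0.58 ± 0.22 for PARP9, −0.58 ± 0.25 for DTX3L and −0.96 ± 0.29 for PARP14 (SE), with 95% intervals of −1.05 to −0.11, −1.13 to −0.03 and −1.58 to −0.34. All P3 libraries were below all P1 libraries in the 3 genes, a pattern that 7.62% of tested genes showed. The adjusted p of edgeR's quasi-likelihood test was 0.258, 0.307 and 0.196, and 0.0543% of all genes (3 genes) were called at an adjusted p under 0.05 between these ages. The study called a gene without adjustment, at p up to 0.05 and a log2 change beyond 0.5 in size. By these thresholds all 3 genes were lower at P3, as were 3.64% of tested genes. With 1 library left out, PARP14 always passed them. PARP9 did not without P1 replicate 5 or 6 (unadjusted p up to 0.0642, edgeR's quasi-likelihood test). DTX3L did not without P1 replicate 5 or 6 or any 1 of the P3 libraries (up to 0.148).

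Between P1 and P7 the log2 fold changes were −0.54 ± 0.22, −0.52 ± 0.25 and −0.57 ± 0.28 for PARP9, DTX3L and PARP14 (SE). Their adjusted p was 0.234, 0.342 and 0.349 by edgeR's quasi-likelihood test. With 1 library left out the changes were −0.78 to −0.38, −0.77 to −0.33 and −0.96 to −0.35. Of all genes, 2.01% were called in either direction. PARP9 alone of the 3 passed the study's thresholds here, as did 4.07% of genes that were lower at P7. It no longer passed without P1 replicate 5 or 6 or P7 replicate 5 or 6 (unadjusted p up to 0.124, edgeR's quasi-likelihood test). All 3 genes passed without P1 replicate 4, P7 replicate 4 or P28 replicate 5 (unadjusted p up to 0.0445, same test). Between P3 and P7 the log2 fold changes were 0.04 for PARP9, 0.07 for DTX3L and 0.39 for PARP14, with 95% intervals of −0.43 to 0.51, −0.49 to 0.62 and −0.23 to 1.00. None of the 3 was called (adjusted p 0.938, 0.921 and 0.489), where 2.21% of all genes were. Without P7 replicate 4, the highest of its age, these differences were −0.20, −0.19 and −0.0042 on the log2 scale, so no direction between P3 and P7 was measured.

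**Figure D2:**
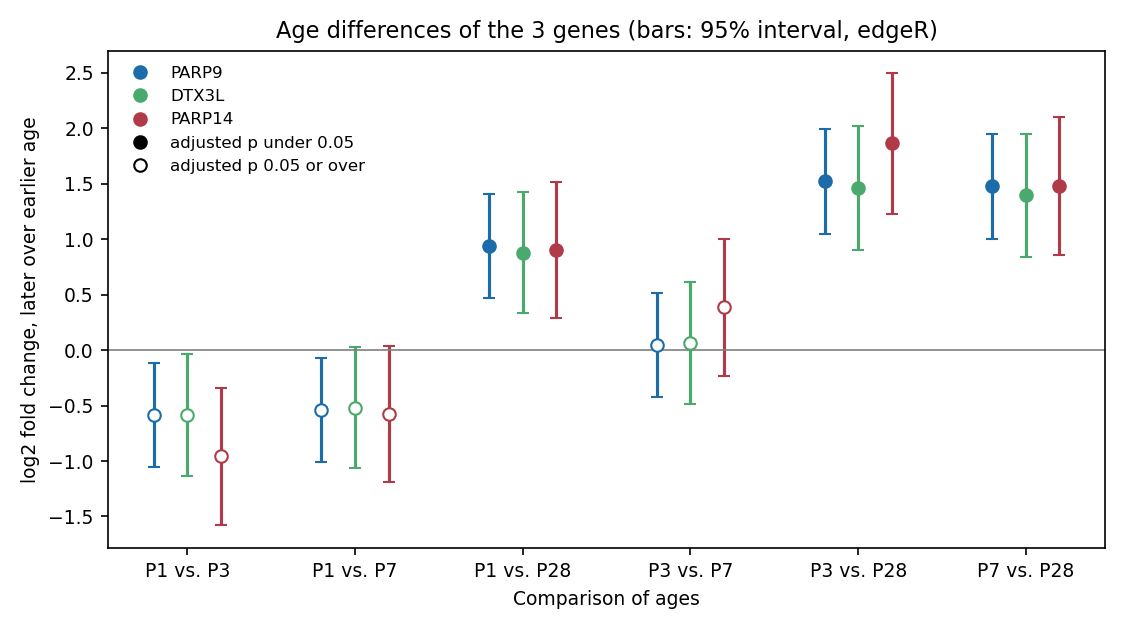
Log2 fold change of the later over the earlier age (vertical axis) for the 6 pairs of ages, with 95% intervals from edgeR. The filled points, at an adjusted p under 0.05, are the 9 comparisons of the 3 genes with P28. All points for P1 against P3 and P7 are below 0 and open.

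Per kilobase of gene length, the 3 genes were at similar levels. The mean was 11.4 CPM per kb for PARP9, 11.8 for DTX3L and 14.8 for PARP14 at P1, and 7.63, 7.89 and 7.60 at P3. At P7 it was 7.87, 8.26 and 9.94 CPM per kb, and at P28 21.9, 21.7 and 27.7. At P3 they stood at the 43.1, 43.8 and 43.0 percentiles of the levels of all tested genes, and at P28 at the 68.4, 68.2 and 73.9 percentiles.

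PARP9 and DTX3L, the 2 subunits of the complex, kept a nearly equal level. The ratio of PARP9 to DTX3L per kilobase was 0.884 to 1.09 over the 12 libraries, although the CPM of PARP9 differed 4.07-fold and that of DTX3L 4.22-fold between the lowest and the highest library. The ratio of PARP14 to DTX3L was more variable, at 1.22 to 1.31 at P1, 0.878 to 1.03 at P3, 1.09 to 1.34 at P7 and 1.23 to 1.33 at P28. The 3 P3 libraries thus had the 3 lowest ratios of PARP14 to DTX3L. Whether PARP14 differed more than DTX3L between the ages was not tested.

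The 3 genes also moved together between pigs of the same age. After the age means were removed, the log2 CPM of PARP9 and DTX3L had a Pearson r of 0.979 and a Spearman rho of 0.937 over the 12 libraries (exact two-sided permutation within ages, p = 0.00849 and 0.0239). For DTX3L and PARP14 r was 0.967 and rho 0.965 (exact permutation p = 0.00386 and 0.00849), and for PARP9 and PARP14 r was 0.963 and rho 0.916 (exact permutation p = 0.0154 and 0.034). The p of r adjusted over the 3 pairs was 0.0127, 0.0116 and 0.0154 by this exact permutation test. Without the 2 libraries farthest from the median, r was 0.976, 0.956 and 0.965 for these pairs (exact permutation p = 0.0139, 0.0231 and 0.037) and rho 0.976, 0.903 and 0.903 (exact permutation p = 0.0139, 0.0648 and 0.0648). These 2 were P28 libraries, so the lone P28 library left added nothing to r. With the P1, P3 and P7 libraries alone, a choice made after seeing the data, r is the same by construction, and rho was 0.983, 0.933 and 0.917 (exact permutation p = 0.0231, 0.0556 and 0.0787). At P7, replicate 4 was the highest of its age in all 3 genes, and at P28 replicate 5 was the lowest.

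**Figure D3:**
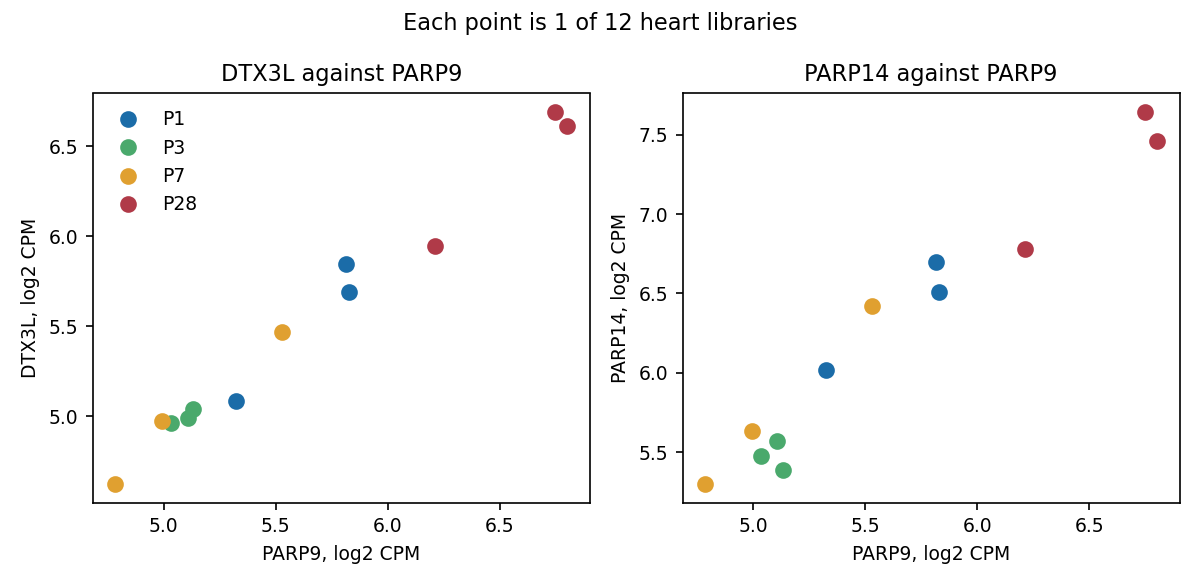
Log2 CPM of DTX3L (left) and PARP14 (right) against log2 CPM of PARP9, with 1 point per library, coloured by age. The points of both panels lie along 1 rising line, with the P28 libraries at the top; in the right panel the 3 P3 libraries lie slightly below the line of the others.

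Over the 12 libraries the gene whose pattern was most like that of PARP9 among all 5526 tested genes was DTX3L (Pearson r of log2 CPM 0.992), followed by PARP14 (0.978). The most like DTX3L were PARP9 and PARP14 (0.992 and 0.982), and the most like PARP14 were DTX3L, IFI44 and PARP9 (0.982, 0.982 and 0.978). These are descriptions over libraries that share the difference between P28 and the younger ages. IFI44, an interferon-induced gene on chromosome 6, came next after the other members for PARP9 and DTX3L, at 0.971 and 0.960. The unnamed protein-coding gene ENSSSCG00000034802 at chr13:125098786-125102765 followed for each of the 3, at 0.950, 0.953 and 0.961. The next places were held by ZCCHC2 for PARP9 (0.941) and IFI44L for PARP14 (0.949). After the age means were removed, the r of IFI44 with PARP9, DTX3L and PARP14 was 0.863, 0.833 and 0.910. That of ENSSSCG00000034802 was 0.8345, 0.863 and 0.845, so co-variation within ages was not particular to the 3 genes. It was 0.599 for ZCCHC2 with PARP9 and 0.857 for IFI44L with PARP14. These values were not tested.

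Of the 21 genes that the table lists within 500 kb of the 3 genes, 11 were tested, the 3 genes included. The 10 not tested had 0 to 4 counts per library. They are CSTA, CASR, the small nuclear RNA U6 and 7 genes with no symbol, among them the protein-coding ENSSSCG00000011875 between PARP14 and DTX3L, with 0 to 1 counts. From P7 to P28, only CD86 (log2 fold change 1.02 ± 0.29, adjusted p 0.0283) and SEMA5B (−2.03 ± 0.42, adjusted p 0.00516) of the 8 other tested neighbours were called by edgeR's quasi-likelihood test (SE). The CD86 call was lost without P7 replicate 4 or 5 or P28 replicate 4 (adjusted p up to 0.126). CD86 is a costimulatory protein of antigen-presenting cells and SEMA5B a semaphorin. KPNA1, an importin whose span overlaps that of PARP9, had a log2 fold change of 0.35 ± 0.19 between P7 and P28 (adjusted p 0.221) and of 0.80 ± 0.19 from P3 to P28 (adjusted p 0.015, or 0.0687 without P28 replicate 4). HSPBAP1, which overlaps PARP14 at its edge, was at 0.11 ± 0.18 between P7 and P28 (adjusted p 0.694).

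Some neighbours fell where PARP9, PARP14 and DTX3L rose. From P1 to P28, PDIA5, a protein disulfide isomerase, fell by 0.56 on the log2 scale, FAM162A fell by 0.51 and SEMA5B fell by 2.56 (adjusted p 0.0401, 0.0428 and 0.0021 by edgeR's quasi-likelihood test). With the replicate number as a block the calls of PDIA5 and FAM162A were lost (adjusted p 0.0532 for both), as they were without any of 7 and 9 single libraries (up to 0.137 and 0.132). PDIA5 and SEMA5B also fell from P3 to P28 (adjusted p 0.0195 and 0.00307; for PDIA5 up to 0.0766 without P28 replicate 4 or 6), where KPNA1 and CD86 were the 2 neighbours that rose. SLC49A4 and MIX23 were not called in any comparison with P28, with log2 fold changes between P7 and P28 of 0.04 and −0.0053. The calls among the 8 neighbours were thus 2 higher and 2 lower from P3 to P28, 1 of each from P7 to P28 and 3 lower from P1 to P28. Of all tested genes, 7.93% were called lower from P1 to P28, 8.51% from P3 to P28 and 10.5% from P7 to P28, and 7.98% were called higher from P3 to P28 and 8.34% from P7 to P28.

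**Figure D4:**
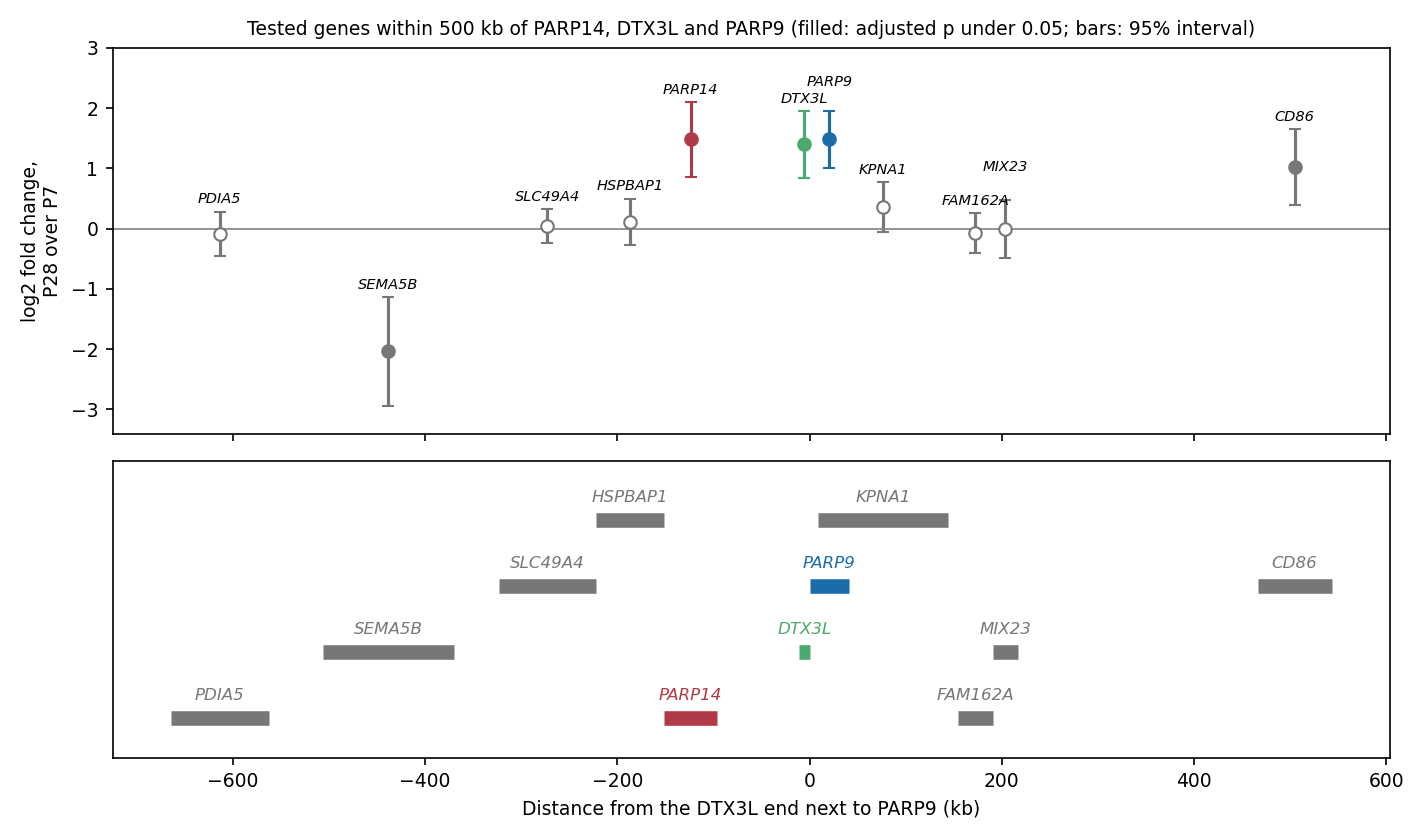
Upper panel: log2 fold change of P28 over P7 (vertical axis, 95% intervals, filled at an adjusted p under 0.05) of the 11 tested genes against the middle of each gene. Lower panel: the span of each gene, in kb from the DTX3L end next to PARP9. PARP14, DTX3L and PARP9 lie at about 1.5, while the 5 tested genes closest to them, from SLC49A4 to MIX23, lie between −0.08 and 0.35.

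The interferon pathway was then taken in order of role, with lists of which only the members on the 4 chromosomes could be seen. Of the ligands, IFNB1 had 0 counts in all 12 libraries and was not detectable at this depth, and IFNE had 0 to 2. Of the receptor subunits, IFNLR1, the specific chain of the lambda interferon receptor, rose from P1 to P28 by 2.02 log2 units (adjusted p 0.00362), from 1.13 ± 0.39 to 4.62 ± 1.03 CPM (SD, n = 3, 6 to 62 counts over all libraries). IFNAR1, a chain of the type I receptor, fell by 0.39 on the log2 scale from P1 to P28 (adjusted p 0.0446) and fell by 0.59 from P7 to P28 (adjusted p 0.00482). Of the 6 tested receptor genes, 1 was higher and 1 lower in each of these 2 comparisons by edgeR's quasi-likelihood test, and their median log2 fold change was 0.28 and −0.06. Over all tested genes 7.38% were higher and 7.93% lower in the first, and 8.34% and 10.5% in the second. From P3 to P28, 2 of the 6 rose and none fell, at a median of 0.40, where 7.98% and 8.51% of all tested genes did. IFNGR2, a chain of the gamma interferon receptor, was one of them, with 0.69 log2 units (adjusted p 0.0444). The IFNGR2 call was lost without any of 10 single libraries (adjusted p up to 0.157) and the IFNAR1 call from P1 to P28 without any of 8 (up to 0.162), whereas those of IFNLR1 and of IFNAR1 from P7 to P28 were kept without any library. IL10RB, shared by the lambda interferon and interleukin-10 receptors, was not called as higher or lower in any comparison with P28.

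Of 6 tested signalling genes none was called from P1 to P28 or from P7 to P28, nor by the study's thresholds, at median log2 fold changes of 0.02 and 0.16. From P3 to P28 PIAS1, an inhibitor of the pathway, rose by 0.59 log2 units (adjusted p 0.0148) and IRF3, a transcription factor upstream of interferon beta, fell by 0.53 (adjusted p 0.0297 by edgeR's quasi-likelihood test). Over all tested genes 7.38% rose and 7.93% fell from P1 to P28, 8.34% and 10.5% from P7 to P28 and 7.98% and 8.51% from P3 to P28, so few calls among 6 genes are near the background. The IRF3 call was lost without P3 replicate 5 or 6, P7 replicate 5 or any of the P28 libraries (adjusted p up to 0.105). JAK1 and IRF8, a kinase and a transcription factor of the pathway, were not called.

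The interferon-induced effectors are the genes that an interferon signal switches on. Of a list of 69, 15 were tested. ISG20, with 0 to 5 counts in the younger libraries and 10 to 51 at P28, had enough counts only through P28, so its rise was fixed by the filter and it is left out of the counts that follow. Of the other 14, 6 rose from P1 to P28, 9 from P3 to P28 and 10 from P7 to P28, and none fell, by edgeR's quasi-likelihood test at an adjusted p under 0.05. Of all tested genes, 7.38%, 7.98% and 8.34% rose in these comparisons. The median log2 fold change of the 14 was 0.90, 1.22 and 1.35, against medians of 0.0035, −0.04 and 0.01 over all tested genes. None was called between P1 and P3 or P1 and P7, where the medians were −0.72 and −0.46. With 1 library left out these 2 medians were −0.85 to −0.52 and −0.81 to −0.30. By the study's thresholds 8 and 4 of the 14 were lower at P3 and P7 than at P1, as were 3.64% and 4.07% of all tested genes. With 1 library left out at a time, the number that rose from P1 to P28 was 2 to 6: it was 3 without P1 replicate 4 or 6 and 2 without P1 replicate 5 or P28 replicate 4 or 6. It was 7 to 11 from P3 to P28, and 6 to 11 from P7 to P28, with 6 without P7 replicate 5.

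IFI44L, an interferon-induced gene beside IFI44, was at 90.6 ± 20.5 CPM at P1, 48.9 ± 7.87 at P3, 79.2 ± 25.7 at P7 and 248 ± 64.8 at P28 (SD, n = 3). IFI44 was at 64.7 ± 14.7, 33.5 ± 5.03, 45.0 ± 22.2 and 140 ± 22.4 CPM at the same ages. IFI6, a small membrane protein, was at 207 ± 55.7, 87.1 ± 32.3, 121 ± 70.5 and 479 ± 29.1 CPM. Each of the 3 thus had its lowest mean at P3 and its highest at P28, as PARP9, DTX3L and PARP14 did. B2M, the light chain of MHC class I, was at 719 ± 94.5, 456 ± 52.2, 576 ± 77.3 and 1047 ± 77.5 CPM, in the same order of ages. This order of the means, P3, P7, P1 and P28 from the lowest up, was that of 6 of the 14 effectors. The mean was lowest at P3 in 7 and at P7 in 7 of the 14, and highest at P28 in 13. BST2, a membrane protein that tethers virus particles, was highest at P1. The shares of all tested genes with these orders were not counted. IFI44L, IFI44, IFI6 and B2M rose from P1 to P28 with adjusted p of 0.0029, 0.0205, 0.0388 and 0.0228 by edgeR's quasi-likelihood test. With 1 library left out, IFI44L kept this call, while IFI44 lost it in 4, IFI6 in 6 and B2M in 5 of 12 cases, each time on removal of a P1 or P28 library (adjusted p up to 0.0724, 0.123 and 0.104). Over the 12 libraries, the 14 effectors without ISG20 had a median Pearson r with PARP9 of 0.866 (0.553 to 0.971), with DTX3L of 0.859 (0.577 to 0.960) and with PARP14 of 0.904 (0.594 to 0.982).

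Among the other ADP-ribosylation genes, PARP3, a mono-ADP-ribosyltransferase of DNA repair, was the only called member of 3 tested ADP-ribosyltransferases: it rose from P1 to P28 by 0.68 log2 units (adjusted p 0.0172), from P3 to P28 by 1.24 (0.00104) and from P7 to P28 by 0.79 (0.0065, edgeR's quasi-likelihood test). Of all tested genes, 7.38%, 7.98% and 8.34% rose in these comparisons. The PARP3 call from P1 to P28 was lost without P1 replicate 5 or P28 replicate 5 or 6 (adjusted p up to 0.0802). Its mean was 44.3, 30.02, 41.1 and 71.0 CPM at P1, P3, P7 and P28. TIPARP, at 94.6, 74.5, 80.8 and 84.4 CPM, and PARP16, at 22.3, 20.8, 24.1 and 17.4 CPM, were not called between any 2 ages.

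Of 5 tested genes that remove or bind ADP-ribose, MACROD1, a mono-ADP-ribosyl hydrolase, rose from P1 to P28 and from P7 to P28, each time by 0.58 log2 units (adjusted p 0.0241 and 0.0206, edgeR's quasi-likelihood test). These calls were lost in 5 and 4 of 12 cases with 1 library left out (adjusted p up to 0.0995 and 0.0993). ENPP1, a nucleotide pyrophosphatase, rose from P3 to P28 by 0.81 log2 units (adjusted p 0.00669). Over all tested genes, 7.38% rose from P1 to P28, 8.34% from P7 to P28 and 7.98% from P3 to P28. ADPRH, ADPRS and NUDT16 were not called, nor was DTX4, the other Deltex ligase in the table.

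**Figure D5:**
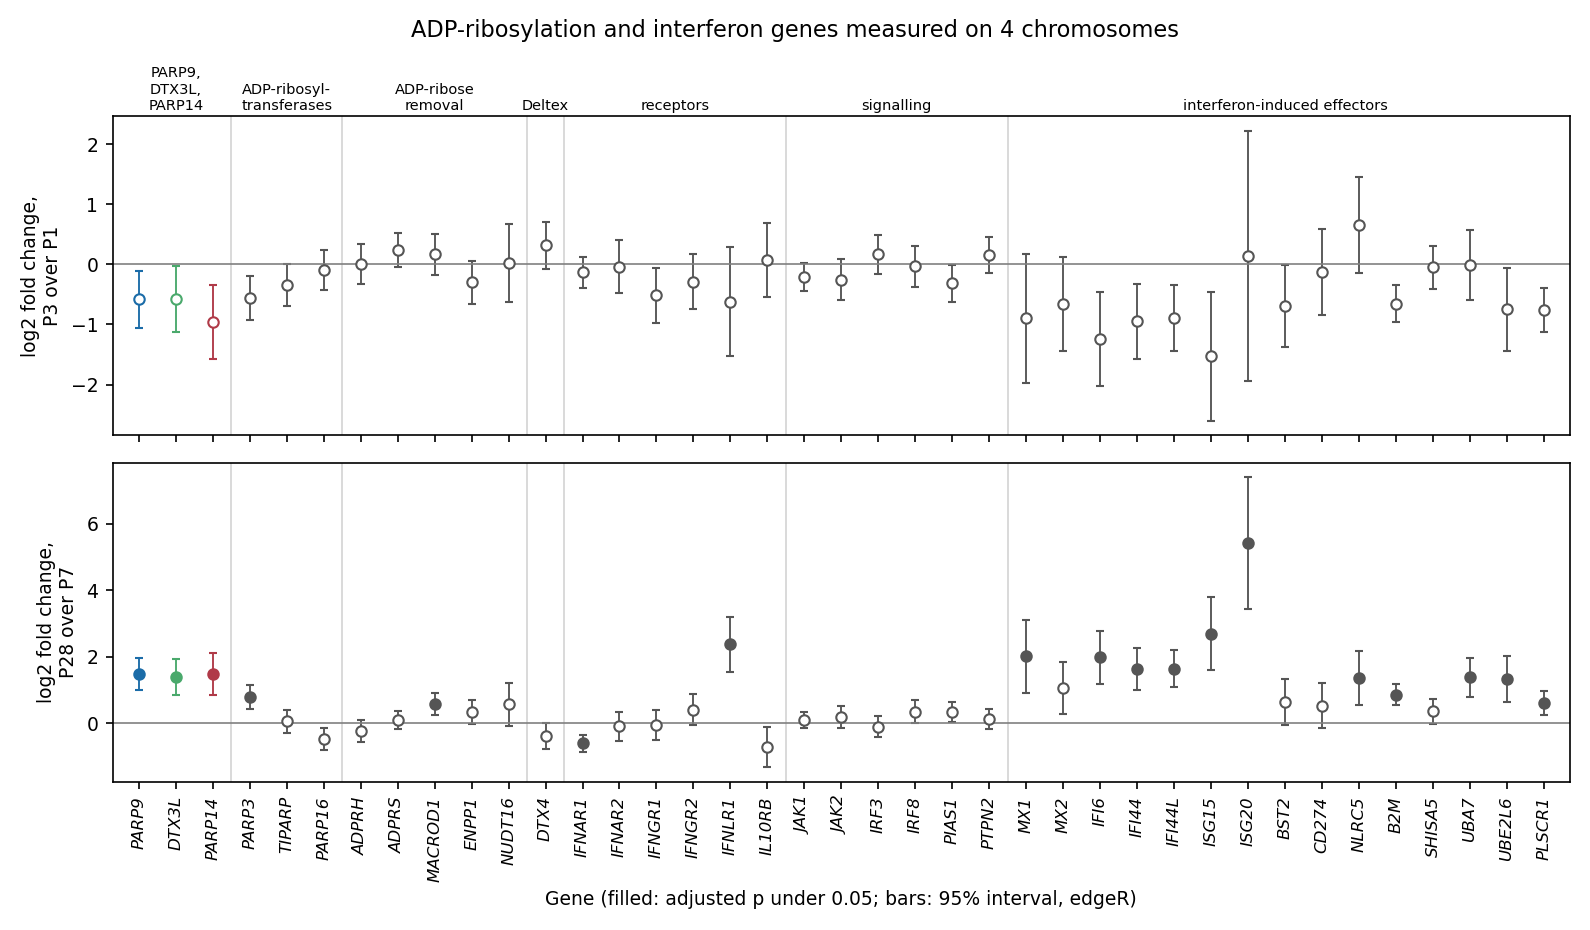
Log2 fold change (vertical axis, 95% intervals from edgeR) of P3 over P1 (upper panel) and P28 over P7 (lower panel) for PARP9, DTX3L, PARP14 and the tested members of the 6 lists; filled points have an adjusted p under 0.05. No point is filled in the upper panel; in the lower one the 3 genes and 11 of the 15 interferon-induced effectors are filled above 0, ISG20 among them, which had enough counts only through P28.

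Markers of other cells moved with age too. Of 10 tested macrophage and monocyte markers, 4 rose from P1 to P28, 7 from P3 to P28 and 5 from P7 to P28 (edgeR's quasi-likelihood test), and none fell, where 7.38%, 7.98% and 8.34% of all tested genes rose. Their sum was 484 to 677 CPM at P1, 453 to 574 at P3, 418 to 557 at P7 and 755 to 1251 at P28. The table holds only these 10 of the 17 listed markers, and none of the 10 was at 0 in all libraries. From P1 to P28 the number that rose was 1 without P1 replicate 5 or 6, 0 without P28 replicate 4 and 2 without P28 replicate 5. From P3 to P28 it was 4 without P3 replicate 6 and 2 without P28 replicate 4, and from P7 to P28 it was 2 without P7 replicate 5 or P28 replicate 4. Their part in the P28 level of PARP9, DTX3L and PARP14 was not tested.

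The marker sum of the single libraries can be set beside the 3 genes within each age. At P1 it was 677, 484 and 661 CPM in replicates 4, 5 and 6, and PARP9, DTX3L and PARP14 were lowest in replicate 4, with PARP9 highest in replicate 5 and the other two in replicate 6. At P3 it was 504, 574 and 453 CPM; PARP9 and DTX3L were highest in replicate 4 and lowest in replicate 5, and PARP14 was highest in replicate 6 and lowest in replicate 4. At P7 it was 552, 418 and 557 CPM, with all 3 genes highest in replicate 4 and lowest in replicate 6. At P28 it was 1251, 814 and 755 CPM; PARP9 was highest in replicate 4, DTX3L and PARP14 were highest in replicate 6, and all 3 were lowest in replicate 5. The summed level of the interferon-induced effectors, ISG20 included, was 1687, 1659 and 2060 CPM at P1 and 859.5, 1301 and 1257 CPM at P3. It was 1711, 1112 and 1078 CPM at P7 and 3145, 2699 and 3300 CPM at P28. B2M made up a large part of it. Without B2M the sum was 891, 1045 and 1311 CPM at P1 and 453, 851 and 746 CPM at P3. At P7 it was then 1052, 606 and 514 CPM, and at P28 2009, 1704 and 2290 CPM. No relation within ages was tested.

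Of the other marker lists, 3 of 5 fibroblast markers fell from P1 to P28, 4 from P3 to P28 and 3 from P7 to P28, and none rose (summed 4898 to 5435 CPM at P1 and 1767 to 2153 CPM at P28). Of 5 endothelial markers, 1 rose from P1 to P28, 1 rose and 1 fell from P3 to P28, and 2 fell from P7 to P28. Of 7 cardiomyocyte markers, 1 rose and 1 fell from P1 to P28, none was called from P3 to P28 and 4 rose from P7 to P28. EPB42, the only tested erythroid marker, fell from P3 to P28 and from P7 to P28 and was not called from P1 to P28. Over all tested genes, 7.38% rose and 7.93% fell from P1 to P28, 7.98% and 8.51% from P3 to P28, and 8.34% and 10.5% from P7 to P28. Of 3 tested lymphocyte markers, 2 rose from P1 to P28, 1 rose from P3 to P28 and none was called from P7 to P28. The 6 of the 16 listed lymphocyte markers that the table holds summed to 356 to 638 CPM over all libraries, most of it CD79A. Of the fibroblast, endothelial and erythroid lists the table holds 5 of 13, 5 of 12 and 1 of 11 markers. The part of these cell types in the levels of PARP9, DTX3L and PARP14 was not tested.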

How the data were processed

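Total RNA of pig hearts was depleted of ribosomal RNA and sequenced by CD Genomics as paired reads, as the paper states. The authors deposited raw counts per gene, without normalization. The counter is not given in the sources used here. The submitters' processing notes name STAR 2.7.9a, MultiQC 1.11 and Sscrofa10.2 with no role. The kit is named differently in the labels and in the paper, both stranded. The last line of the table, which carried no counts, was left out. The circRNA and small RNA files were not used.

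The 12 columns were placed in groups by the age in their names. Genes with at least 10 counts in at least 3 libraries were kept (5526 of 9815), and the 4 ages were fitted together with edgeR 4.0.16 in R 4.3.3 (TMM, quasi-likelihood F test). A call was a Benjamini-Hochberg adjusted p under 0.05 over all tested genes. Log2 CPM used a prior count of 2. Correlations were tested by exact permutation within ages, and plots were drawn with matplotlib 3.10.9. The fits were tested on simulated data. The members and gene lists were chosen with earlier results of these data known. Named were the 3 genes, the genes within 500 kb (those without a symbol and too few counts as a number, except 1), all tested members of a list of at most 5 other than the markers, otherwise the 4 with the smallest p over the ages, and the 5 most similar genes, of which 1 is not reported here. Other genes and markers named were chosen after their values were seen. Same-numbered libraries were checked for shared deviations from the age means: for P1 and P28 all 3 pairs had a correlation over 0.1 (0.138 to 0.331), so the block is given beside those P1 to P28 results whose call it changed, though the labels tie no number to a litter or day. Alternatives were DESeq2 1.42.0, limma 3.58.1 voom, other filters, no Metazoa_SRP genes, DESeq2 size factors, only 2 ages, the block and leaving out each library.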

Additional observations from a re-analysis of the deposited data

How the results depend on the processing

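For the 3 genes and 6 pairs of ages, 20 other fits each were run, 360 in all, of which 341 kept the direction and the side of the threshold. The higher levels of PARP9, DTX3L and PARP14 at P28 than at P3 and at P7 were called in all of them, as was that of PARP9 over P1. Under the study's thresholds the P1 to P3 differences of −0.58, −0.58 and −0.96 passed, and PARP9 at P7 (−0.54). Of these, only the PARP14 difference passed whichever 1 library was left out. Between P1 and P28 the replicate block gave 0.86 for DTX3L (adjusted p 0.0542) and 0.87 for PARP14 (0.0703), and without the Metazoa_SRP genes PARP14 was at 0.90 (0.0502). The causes were not tested. With 1 library left out, DTX3L ranged from 0.68 to 1.08 and PARP14 from 0.73 to 1.12. The P3 to P7 difference of PARP9 was −0.00075 with limma voom. With 1 library left out it was −0.20 to 0.19, that of DTX3L −0.19 to 0.24 and that of PARP14 −0.0042 to 0.60, each lowest without P7 replicate 4. Over all pairs of ages, 5 of 18 same-numbered pairs of libraries had a correlation over 0.1 (−0.186 to 0.331). Of these 5, the values 0.144 (P1 and P7, replicate 6) and 0.181 (P3 and P7, replicate 5) lay outside P1 and P28. Whether the numbers pair the samples was not tested. Outside P1 and P28 the block changed no call of the 3 genes.

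The number of all genes called was 3 between P1 and P3, 122 with DESeq2, 34 with no filter, 1 with at least 50 counts in 6 libraries, 7 with the block and 1 to 16 with 1 library left out. Between P1 and P7 it was 111, with 364 by DESeq2, 199 by limma voom, 194 with no filter, 351 with only the 2 ages and 21 to 328 with 1 library left out. Between P3 and P7 it was 122, with 364 by DESeq2, 15 with only the 2 ages, 77 with the block and 16 to 246 with 1 library left out. It was 463 to 1412 with 1 library left out between P1 and P28 (846 with all), 504 to 1190 between P3 and P28 (911) and 580 to 1558 between P7 and P28 (1040), and 432 and 1681 with only the 2 ages in the last 2 pairs. Levels are relative to genes of 4 chromosomes, and 3 pigs an age limit what the P1 to P3 and P1 to P7 comparisons can show.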

Other observations

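CD79A, a B cell receptor component, had 4434 to 8834 counts in each of the 12 heart libraries, while MS4A1, another B cell marker, had 0 to 24. EPB42, an erythroid membrane protein, was at 5.70 to 8.74 CPM in the P3 libraries and at 0.562 to 1.65 CPM in those of P28.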
